A study of Homo sapiens with 6 samples.

Results

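The genes described are 8 subunits of the class I phosphoinositide 3-kinases (PI3K), the lipid kinases that make the membrane signal PIP3. They comprise 4 catalytic subunits (PIK3CA, PIK3CB, PIK3CD and PIK3CG) and 4 regulatory subunits (PIK3R1, PIK3R2, PIK3R3 and PIK3R5). Their expression was read in 6 polyA RNA-seq libraries of A375SM cells, a line derived from metastases of human A375 melanoma cells. The shCtrl group is 3 libraries of cells that carry a control hairpin RNA. The shPRAME group is 3 libraries of cells with a hairpin against PRAME, which encodes a cancer-testis antigen frequently present in melanoma. All 6 libraries are labelled genotype WT and batch 1, and the hairpin is the only label in which the groups differ. The number and sequence of the hairpins were not stated in the sources used here. Whether replicates were transduced separately is not stated, so p-values below describe the spread among these 6 libraries, which may be technical.

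The 8 genes are 8 of 40895 gene identifiers in the files, and were selected on earlier results of this same contrast. Their differences between shPRAME and shCtrl are therefore given as values, with no test. All 8 passed the filter on low counts, which left 15954 genes. PIK3R5 passed through its shCtrl libraries only, since 0 of its 3 shPRAME libraries reached the minimum level of 0.297 CPM (counts scaled to the library total). PIK3CG reached that level in 3 shCtrl libraries and in 2 shPRAME libraries.

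Class I PI3K enzymes are dimers of a catalytic p110 subunit and a regulatory subunit. In class IA the regulatory subunit holds the kinase in check until a receptor engages it. The class IA catalytic subunits p110-alpha, p110-beta and p110-delta (PIK3CA, PIK3CB, PIK3CD) bind the p85 family (PIK3R1, PIK3R2, PIK3R3), whose SH2 domains dock on phosphorylated receptor tyrosine kinases and adaptors. The class IB subunit p110-gamma (PIK3CG) binds p101 (PIK3R5) or p84 (PIK3R6) and is switched on by G protein beta-gamma dimers and RAS. PIK3CA and PIK3CB are expressed in most tissues, whereas PIK3CD and PIK3CG are best known from leukocytes. PIP3 recruits AKT and other kinases and exchange factors to the membrane, lipid phosphatases break it down, and in melanoma this route runs beside the RAS-RAF-MEK-ERK route.

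Library totals ranged from 30842788 to 34107332 counts, and 3 counts corresponded to 0.088 to 0.0973 CPM in a single library. Levels below are CPM scaled by trimmed mean of M-values (TMM), given as mean ± SD of 3 libraries, and log2 fold changes (shPRAME against shCtrl) come from edgeR with their standard errors (SE). PRAME itself, the hairpin's target, was at 165.0 ± 1.26 CPM in shCtrl and 56.4 ± 2.30 CPM in shPRAME, a log2 fold change of -1.55 (edgeR adjusted p = 4.85e-17). In this contrast 74.4% of the tested genes passed an adjusted p of 0.05, 37.7% of all tested genes with higher and 36.8% with lower levels in shPRAME. In bulk libraries, fewer cells of a type and less RNA per cell cannot be told apart.

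The class IB pair was the part of the family that differed most. PIK3CG was 41.3 times lower and PIK3R5 was 8.27 times lower in shPRAME than in shCtrl, both as ratios of mean CPM. PIK3CD was lower by 40.6%, while the other 5 genes lay within 0.25 of 0 on the log2 scale. Of the 15954 tested genes, 5657 lay within that range and 2974 differed at least 2-fold. Among the 8 genes, 4 had log2 fold changes above 0 and 4 below it, with a median of 0.01, and the median over all tested genes was 0.01 too. The median absolute log2 fold change was 0.20 for the 8 genes and 0.38 for all tested genes. The 6 libraries separated into non-overlapping groups for 7 of the 8 genes, a property that 76.5% of all tested genes shared.

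**Figure D1:**
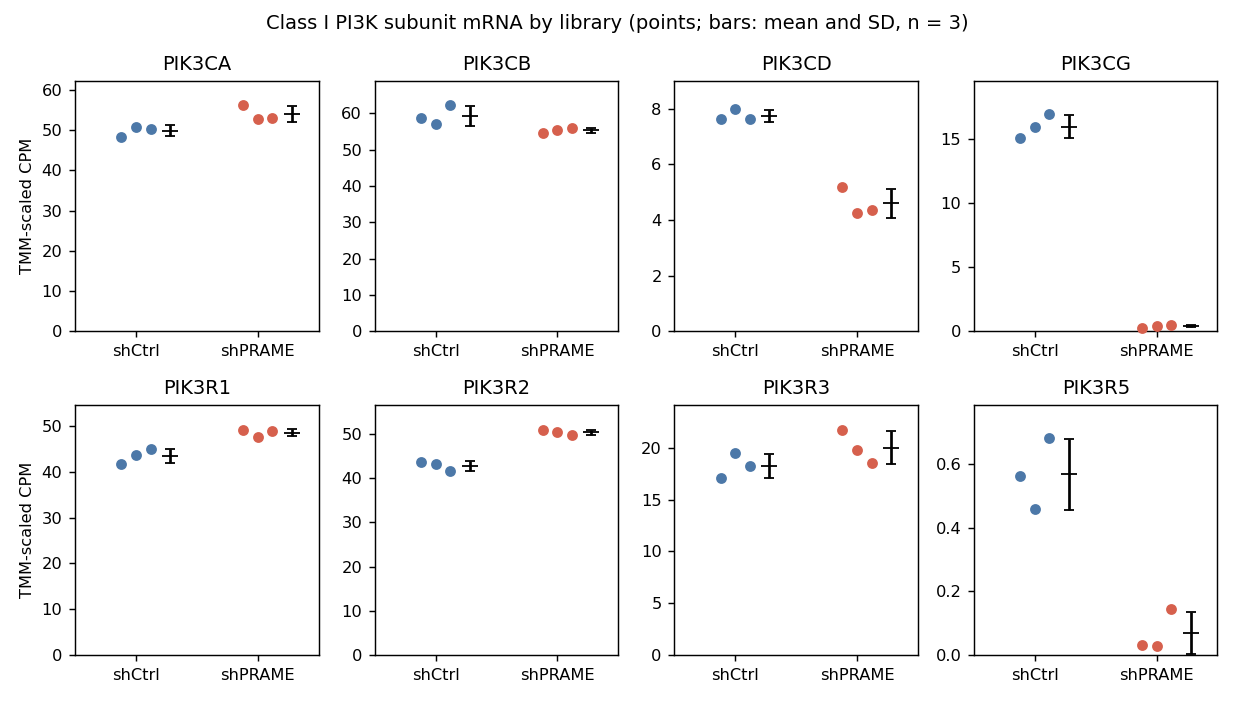
TMM-scaled CPM of the 8 subunit genes in each library, 1 panel per gene with its own y axis that starts at 0. Points are libraries (3 shCtrl, 3 shPRAME) and black bars are the mean and SD of each group. The mean of PIK3CG is 16.0 CPM in shCtrl and 0.386 CPM in shPRAME, that of PIK3R5 is 0.567 and 0.0686 CPM, and PIK3R3 is the gene with overlapping groups.

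PIK3CG (NCBI gene 5294, chromosome 7, 106865282 to 106908980 on GRCh38.p14) encodes p110-gamma. The shCtrl libraries held 508, 521 and 521 PIK3CG counts, and the shPRAME libraries 9, 14 and 16. The corresponding levels were 15.0, 15.9 and 16.9 CPM in shCtrl and 0.288, 0.406 and 0.463 CPM in shPRAME. Every shCtrl library was thus far above every shPRAME library, and the 3 shPRAME libraries stayed above the level that 3 counts give. The mean was 16.0 ± 0.933 CPM in shCtrl and 0.386 ± 0.0894 CPM in shPRAME, or 2.42% of the shCtrl mean. The log2 fold change was -5.34 (SE 0.136). From the summed counts, 1550 against 39, the depth-corrected ratio was 40.9 with a 95% exact counting interval of 29.8 to 57.8. That interval covers counting error only. Among the 15954 tested genes, 59 had a lower log2 fold change than PIK3CG.

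PIK3R5 (NCBI gene 23533, chromosome 17, 8878916 to 8965707) encodes p101, the adaptor through which p110-gamma receives the beta-gamma signal. It was scarce in both groups, with 19, 15 and 21 reads counted in shCtrl against 1, 1 and 5 in shPRAME. In CPM these were 0.562, 0.459 and 0.681 against 0.032, 0.029 and 0.145. The groups did not overlap, but shPRAME replicates 1 and 2 lay below the level of 3 counts, so that their values are barely above no detection. The group means were 0.567 ± 0.111 and 0.0686 ± 0.0660 CPM, and the log2 fold change was -2.95 (SE 0.506). The summed counts, 55 against 7, gave a depth-corrected ratio of 8.09 with a 95% exact counting interval of 3.68 to 21.1. Across the alternative fits the log2 fold change of PIK3R5 ranged from -4.05 to -2.58, a wider span than that of PIK3CG (-5.49 to -5.18). The value of -4.05 was that without shPRAME replicate 3, the library with 5 counts. PIK3R6, the other known partner of p110-gamma, was not among the 8 and was not tested because of low counts. Its shCtrl libraries held 1, 1 and 0 counts, against 3, 2 and 2 for shPRAME. All 6 values were at or under 3 counts, so no fold is given.

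The sequences before the genes are shown because both genes of the class IB pair, which were lower in shPRAME, can be set beside a class IA gene that was slightly higher. RefSeq (GRCh38.p14) lists 20 windows of 250 bases, each before a transcript start of the 8 genes. Of these, 15 lie partly or wholly inside the annotated gene, behind a start further upstream, and 5 lie wholly before it. The lines below hold only bases before the annotated gene, 5′ to 3′ on its own strand, with CG dinucleotides in capitals. They are chr7:106865229-106865281 (plus strand) for PIK3CG, of whose window 53 bases lie before the gene and 197 inside it, chr17:8965708-8965957 (minus strand) for PIK3R5, and chr19:18152913-18153162 (plus strand) for PIK3R2.
PIK3CG: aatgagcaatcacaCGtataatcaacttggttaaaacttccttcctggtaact
PIK3R5: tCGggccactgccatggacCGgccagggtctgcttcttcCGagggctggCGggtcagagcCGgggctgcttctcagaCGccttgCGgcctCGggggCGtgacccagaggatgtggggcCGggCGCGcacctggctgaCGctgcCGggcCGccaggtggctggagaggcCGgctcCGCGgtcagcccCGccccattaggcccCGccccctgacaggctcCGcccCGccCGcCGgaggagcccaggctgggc
PIK3R2: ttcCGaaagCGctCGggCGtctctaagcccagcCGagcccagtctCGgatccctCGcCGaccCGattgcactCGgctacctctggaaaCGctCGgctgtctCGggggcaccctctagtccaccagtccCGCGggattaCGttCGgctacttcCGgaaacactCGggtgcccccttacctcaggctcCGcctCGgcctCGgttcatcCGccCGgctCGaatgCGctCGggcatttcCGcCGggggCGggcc
The 53 bases before PIK3CG held 1 CG dinucleotide. The 5 windows wholly before a gene held 24 for PIK3R5, 30 for PIK3R2, 37 for PIK3R1, 27 for PIK3CB and 4 for PIK3R3, and the median of all 35116 RefSeq windows (27305 genes) was 11. The stretch shown for PIK3CG is shorter than these windows, so its count is not directly comparable with theirs. The full 250-base window of PIK3CG held 6. The other PIK3R5 window, wholly inside the gene, also held 6. How the 2 genes of the class IB pair compare thus depends on the window and its length. Counts per gene do not say which start was used in these cells.

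A set of 3 short motifs was searched on both strands of each window. A GC box (GGGCGG or CCGCCC) was found in 42.6% of all RefSeq windows and in 9 of the 20 windows of the 8 genes, and the PIK3CG window was among the 11 without one. An ETS-type core (ACTTCC or GGAAGT) was found in 19.5% of all windows and in 4 of the 20. The PIK3CG window had 2 such cores, of which 1 lay before the gene. The PIK3R2 window, 1 window of PIK3CD and 1 window of PIK3R1 had 1 each. This motif was chosen after the PIK3CG sequence had been read. TATAAA or TTTATA stood in 10.7% of all windows and in 1 of the 20, at a start of PIK3R3. A match describes these letters only.

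PIK3CD (NCBI gene 5293, chromosome 1, 9627258 to 9729114) encodes p110-delta, the other catalytic subunit best known from leukocytes. Its levels were 7.63, 7.98 and 7.62 CPM in shCtrl and 5.19, 4.24 and 4.37 CPM in shPRAME, from 235 to 261 counts and 146 to 162 counts per library. All 3 shPRAME libraries lay below all 3 shCtrl libraries. The mean went from 7.75 ± 0.207 to 4.60 ± 0.513 CPM, a log2 fold change of -0.75 (SE 0.101). An antisense gene that overlaps it, PIK3CD-AS2, was counted 68, 70 and 68 times in shCtrl against 23, 37 and 32 times in shPRAME, or 2.12 ± 0.0985 and 0.912 ± 0.169 CPM. Strand use in the counting is not given in the sources used here, so reads of the overlap cannot be assigned to 1 of the 2 genes with certainty. CLSTN1, a neighbour that also overlaps PIK3CD, was at 173.4 ± 2.03 and 150.0 ± 4.44 CPM, a log2 fold change of -0.21. PIK3CD-AS1 had 0 counts in every library.

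PIK3CA (NCBI gene 5290, chromosome 3, 179148126 to 179240093) encodes p110-alpha, the catalytic subunit most often mutated in carcinomas. It stood at 48.3, 50.9 and 50.3 CPM in shCtrl and at 56.1, 52.7 and 53.1 CPM in shPRAME. The highest shCtrl library lay just under the lowest shPRAME library, so the groups separated by a narrow gap. The means were 49.8 ± 1.32 and 54.0 ± 1.88 CPM, 8.34% higher in shPRAME, with a log2 fold change of 0.12 (SE 0.0369).

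PIK3CB (NCBI gene 5291, chromosome 3, 138652698 to 138834928) encodes p110-beta, which can be driven by receptor tyrosine kinases and by beta-gamma dimers alike. Its levels were 58.6, 57.1 and 62.3 CPM in shCtrl and 54.6, 55.4 and 56.1 CPM in shPRAME. The ranges separated by about 1 CPM, with shCtrl replicate 3 the highest of the 6. The mean was 59.3 ± 2.66 CPM in shCtrl and 55.4 ± 0.718 CPM in shPRAME, 6.65% lower, with a log2 fold change of -0.10 (SE 0.0365). It was -0.06 without shCtrl replicate 3 and -0.05 with scaling to library totals only. The 2 broadly expressed catalytic genes thus lay on opposite sides of 0, each by less than 10% of its level.

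Among the class IA regulatory genes, all 3 had log2 fold changes above 0. PIK3R1 (NCBI gene 5295, chromosome 5, 68215756 to 68301821) encodes p85-alpha and its shorter forms, the main stabilisers of p110. It was at 41.8, 43.7 and 44.9 CPM in shCtrl and 49.1, 47.7 and 48.9 CPM in shPRAME. The groups did not overlap. The means were 43.5 ± 1.60 and 48.6 ± 0.791 CPM, with a log2 fold change of 0.16 (SE 0.0375).

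PIK3R2 (NCBI gene 5296, chromosome 19, 18153163 to 18170532) encodes p85-beta. It was at 43.6, 43.1 and 41.5 CPM in shCtrl and 51.0, 50.5 and 49.9 CPM in shPRAME, with a wide gap between the groups relative to the spread within each. The means were 42.8 ± 1.08 and 50.4 ± 0.572 CPM, 18.0% higher in shPRAME. Its log2 fold change of 0.24 (SE 0.0354) was the highest of the 8.

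PIK3R3 (NCBI gene 8503, chromosome 1, 46040140 to 46174901) encodes p55-gamma, a shorter relative that lacks the amino-terminal domains of p85. Its levels were 17.1, 19.5 and 18.3 CPM in shCtrl and 21.7, 19.8 and 18.6 CPM in shPRAME. Here the groups overlapped, since shPRAME replicate 3 lay below shCtrl replicate 2. The means of 18.3 ± 1.18 and 20.02 ± 1.60 CPM differed by about the spread within the groups, and the log2 fold change was 0.13 (SE 0.0668). It was 0.08 without shCtrl replicate 1 and 0.08 without shPRAME replicate 1. Its read-through gene P3R3URF-PIK3R3 had 0 counts in every library.

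Levels were compared between genes per kilobase of the longest GENCODE release 29 transcript. On that scale PIK3R2 and PIK3CB had the highest levels in shCtrl, at 10.6 ± 0.267 and 10.02 ± 0.450 CPM per kb. Their ranges overlapped. PIK3R1 followed at 6.20 ± 0.228, then PIK3CA at 5.48 ± 0.145, PIK3R3 at 3.26 ± 0.210, PIK3CG at 2.97 ± 0.174, PIK3CD at 1.41 ± 0.0377 and PIK3R5 at 0.126 ± 0.0247 CPM per kb. PIK3R3 and PIK3CG were the other neighbours in this order with overlapping ranges. In shPRAME the first 4 genes and PIK3R3 stood in the same order, at 12.5 ± 0.142 for PIK3R2, 9.36 ± 0.121 for PIK3CB, 6.93 ± 0.113 for PIK3R1, 5.94 ± 0.207 for PIK3CA and 3.57 ± 0.285 CPM per kb for PIK3R3. PIK3CD came next at 0.839 ± 0.0936, ahead of PIK3CG at 0.0718 ± 0.0166 and PIK3R5 at 0.0153 ± 0.0147 CPM per kb. No neighbours in the shPRAME order overlapped, and PIK3CG had moved from above PIK3CD to below it. The order depended on the length used. Per kilobase of coding length, a scale chosen after the files were seen, PIK3R1 came first in shCtrl at 20.02 ± 0.736 CPM per kb, overlapping PIK3R2 at 19.6 ± 0.494, which in turn overlapped PIK3CB at 18.5 ± 0.829. On that scale PIK3R3 (13.2 ± 0.852) stood well above PIK3CG (4.83 ± 0.282) in shCtrl. PIK3CG was above PIK3CD in shCtrl and below it in shPRAME on both scales. Percentiles per kilobase of transcript were taken among the tested protein-coding genes with a GENCODE length. PIK3CG went from percentile 31.2 in shCtrl to percentile 1.88 in shPRAME, and PIK3CD from 20.8 to 15.6.

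The make-up of the catalytic transcripts, as each gene's share of the summed CPM per kb, followed from these levels. PIK3CG made up 14.4%, 15.1% and 15.3% of the catalytic sum in shCtrl against 0.327%, 0.472% and 0.532% in shPRAME. PIK3CB held 50.4 ± 1.16% in shCtrl and 57.7 ± 1.28% in shPRAME, and PIK3CA held 27.6 ± 0.813% and 36.6 ± 0.874%. PIK3CD held 7.11 ± 0.331% and 5.17 ± 0.516%. None of the 4 shares overlapped between groups. A share of PIK3CB can be higher while its own level is lower, because the sum was 18.5% lower in shPRAME (19.9 ± 0.617 against 16.2 ± 0.199 CPM per kb).

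Among the regulatory transcripts the shares of the class IA genes overlapped between groups. PIK3R1 held 30.7 ± 1.03% of the regulatory sum in shCtrl and 30.1 ± 0.568% in shPRAME. PIK3R2 held 52.5 ± 1.54% and 54.3 ± 0.552%, and PIK3R3 held 16.1 ± 0.821% and 15.5 ± 0.936%. The share of PIK3R5 did not overlap (0.626 ± 0.127% against 0.0669 ± 0.0651%, or 0.0293% without shPRAME replicate 3). The regulatory sum itself was 20.2 ± 0.281 CPM per kb in shCtrl and 23.0 ± 0.455 CPM per kb in shPRAME, 14.03% higher. The ratio of regulatory to catalytic transcripts was 1.03, 1.04 and 0.978 in shCtrl and 1.43, 1.43 and 1.40 in shPRAME, with no overlap. Within class IA alone (PIK3R1, PIK3R2 and PIK3R3 over PIK3CA, PIK3CB and PIK3CD) the ratio was 1.19 ± 0.0386 in shCtrl and 1.43 ± 0.0176 in shPRAME, so the groups separated there too. With coding length in place of transcript length the ratio of all genes was 1.29 and 1.68. These are ratios of mRNA per length and not of protein.

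**Figure D2:**
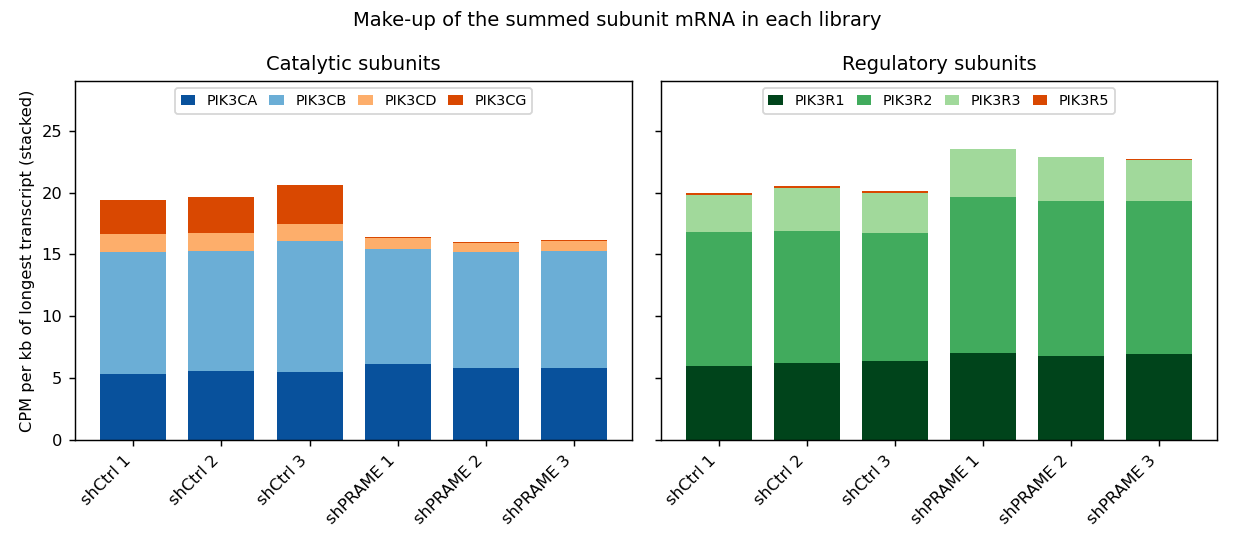
Stacked levels (CPM per kb of the longest transcript, y axis from 0) of the 4 catalytic genes on the left and the 4 regulatory genes on the right, 1 bar per library. The PIK3CG segment takes 14.9% of the catalytic sum in shCtrl on average and 0.444% in shPRAME, while the regulatory segments of PIK3R1, PIK3R2 and PIK3R3 have overlapping shares.

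Each gene was set beside its 20 nearest tested protein-coding genes, 10 on each side. Of all tested genes, 37.7% rose and 36.8% fell. The neighbours of PIK3CG, over 4.66 Mb of chromosome 7, had a median log2 fold change of -0.33, with 13 that fell, 4 that rose and 3 that did not pass. They ranged from -1.52 (SLC26A4) to 0.49 (PUS7), and 0 of the 20 were lower than PIK3CG. The tested protein-coding genes next to it went the other way. CCDC71L rose from 24.1 ± 0.354 to 31.1 ± 0.572 CPM (log2 fold change 0.37, edgeR adjusted p = 9.56e-07). PRKAR2B, a regulatory subunit of protein kinase A, rose from 34.9 ± 1.87 to 43.7 ± 1.41 CPM (0.32, edgeR adjusted p = 3.83e-06). The median of the 20 neighbours was thus below 0 too, but none of them fell by as much as PIK3CG.

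Around PIK3R5, 12 neighbours rose, 4 fell and 4 did not pass. Their median log2 fold change was 0.23, and 1 of the 20 (USP43, at -6.79) was lower than PIK3R5. The nearest tested genes on either side, MYH10 (545.5 ± 2.59 and 670.6 ± 8.01 CPM) and NTN1 (0.766 ± 0.191 and 1.34 ± 0.337 CPM), both rose, by 0.30 and 0.81 on the log2 scale. PIK3R6 (8802722 to 8867677), not tested because of low counts, lies between MYH10 and PIK3R5. Around PIK3CD, 13 neighbours fell and 2 rose, the median was -0.26, and 3 of the 20 were lower than PIK3CD. Here the neighbourhood was low as well, so that subtracting its median leaves -0.49 for PIK3CD.

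For the class IA regulatory genes the neighbourhood lay on the other side of 0. PIK3R1 was higher than 18 of its 20 neighbours (median -0.36), PIK3R2 higher than 15 (median -0.05) and PIK3R3 higher than 19 (median -0.30). Of the tested genes next to PIK3R1, MAST4 rose from 0.333 ± 0.160 to 4.13 ± 0.805 CPM and SLC30A5 fell from 118 ± 4.78 to 75.5 ± 1.76 CPM. The 2 thus differed in direction. PIK3CA was higher than 9 of its neighbours (median 0.25) and PIK3CB higher than 8 (median 0.09), which placed both in the middle of their surroundings. Relative to its neighbourhood the value of PIK3CA turned to -0.13.

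**Figure D3:**
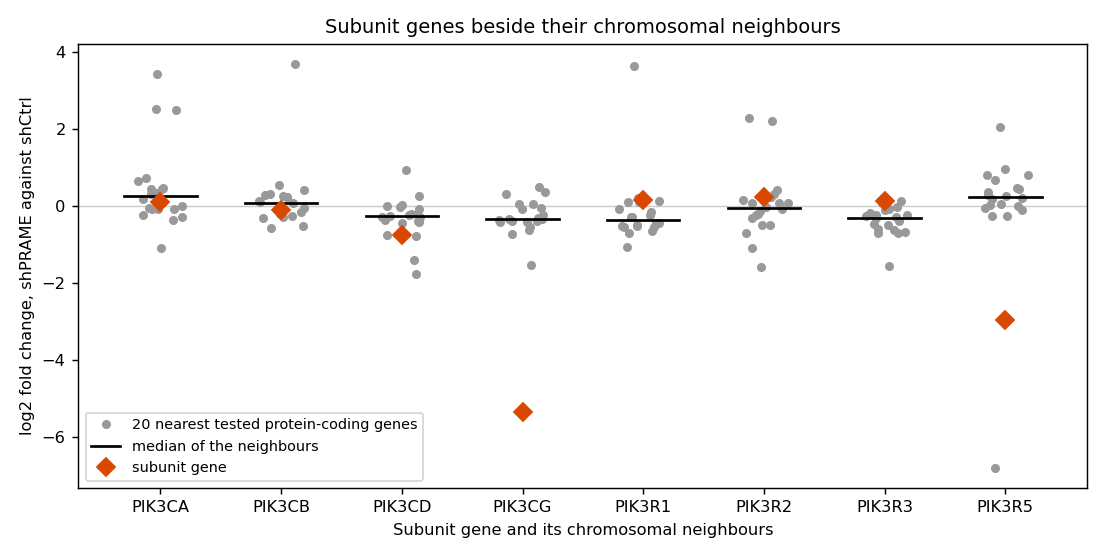
Log2 fold change (shPRAME against shCtrl) of each subunit gene (diamond), of its 20 nearest tested protein-coding genes (points) and of their median (bar). PIK3CG at -5.34 lies below all 20 of its neighbours, PIK3R5 at -2.95 lies below 19, and PIK3R3 lies above 19.

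By the root mean square difference of log2 CPM over the 6 libraries, the protein-coding genes closest in level and pattern to PIK3CG were NFASC (0.241), MYEOV (0.245) and MSL3B (0.407), on chromosomes 1, 11 and 2. NFASC, which encodes the adhesion protein neurofascin, was at 16.4 ± 0.983 CPM in shCtrl and 0.430 ± 0.0739 CPM in shPRAME. MYEOV was at 17.5 ± 1.11 and 0.485 ± 0.128 CPM. Other genes thus had group means close to those of PIK3CG in both groups. Those closest to PIK3R2 were IMP3 (0.0283), GPN3 (0.0322) and CDCA4 (0.0362), at 43.4 ± 0.246, 43.2 ± 1.00 and 42.1 ± 1.35 CPM in shCtrl and 49.97 ± 0.494, 49.5 ± 1.08 and 49.9 ± 0.689 CPM in shPRAME.

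The other genes of the pathway were counted in 7 lists, and 74.4% of all tested genes passed in this contrast. Of the other PI3K family genes, 5 of 9 tested passed (55.6%), 1 higher and 4 lower, with a median log2 fold change of -0.09. PIK3C3, the class III kinase of autophagy and endosomes, rose from 69.8 ± 1.98 to 101 ± 2.16 CPM (0.53). The class II kinases PIK3C2A (124 ± 5.11 to 73.2 ± 0.964 CPM) and PIK3C2B (5.30 ± 0.407 to 3.04 ± 0.275 CPM) fell, by 0.76 and 0.80. The 9 tested genes outside class I thus held none with a difference near that of PIK3CG. PIK3IP1, an inhibitor of p110, did not pass the filter at 0.218 ± 0.0720 and 0.319 ± 0.116 CPM, as was the adaptor PIK3AP1 at 0.0809 ± 0.0440 and 0.187 ± 0.0974 CPM.

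Of the phosphoinositide kinases and phosphatases, 26 of 30 passed (86.7%), 9 higher and 17 lower, with a median of -0.17. Only some of the 30 set the substrate or remove the product of the 8 genes. INPP4B, which acts on the PIP3 breakdown product, rose from 66.0 ± 2.39 to 102 ± 0.183 CPM (0.63), while INPP4A fell from 46.6 ± 1.19 to 24.5 ± 1.63 CPM (-0.93). INPP5F rose from 195.2 ± 6.75 to 505.8 ± 14.4 CPM (1.37), and SYNJ1, a phosphatase of synaptic vesicle recycling, fell from 50.9 ± 0.319 to 16.2 ± 0.970 CPM (-1.65). The phosphatases therefore moved in both directions.

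Upstream of class IA, 24 of 27 tested receptors, RAS genes and adaptors passed (88.9%), 11 higher and 13 lower, with a median of -0.07. ERBB3, a receptor with many docking sites for p85, rose from 322 ± 4.11 to 603 ± 12.3 CPM (0.90), and FGFR1 rose from 22.7 ± 0.752 to 56.3 ± 1.12 CPM (1.31). PDGFRB fell from 64.3 ± 1.86 to 17.4 ± 1.32 CPM (-1.89) and EPHA2 from 64.0 ± 3.16 to 23.2 ± 1.29 CPM (-1.46). The adaptor IRS2 fell from 394 ± 11.3 to 318 ± 13.1 CPM (-0.31), while IRS1 did not pass (16.5 ± 0.178 and 17.9 ± 2.09 CPM, edgeR adjusted p = 0.132). Upstream of class IB, 10 of 12 tested G protein beta and gamma genes passed (83.3%), 5 in each direction, with a median of 0.05. GNB1 fell from 385 ± 5.07 to 256 ± 3.43 CPM (-0.59) and GNB2 from 142 ± 3.54 to 90.3 ± 2.21 CPM (-0.66), whereas GNG2 rose from 85.8 ± 4.23 to 123 ± 2.57 CPM (0.52) and GNG10 from 33.6 ± 2.97 to 44.5 ± 1.57 CPM (0.41). None of the 10 that passed differed 2-fold.

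Downstream, 21 of 24 tested AKT and PIP3 effector genes passed (87.5%), 11 higher and 10 lower, with a median of 0.09. AKT1 (69.8 ± 1.09 and 72.6 ± 2.28 CPM) and AKT2 (87.6 ± 1.51 and 85.5 ± 3.36 CPM) did not pass. PDPK1, the kinase that activates AKT, and PREX1, an exchange factor that reads PIP3 and beta-gamma, fell slightly, by 0.08 and 0.07. PREX2 had 0 counts in every library. GSK3B rose from 163 ± 4.01 to 379.9 ± 13.4 CPM (1.22), and SGK1 (186 ± 5.03 to 89.0 ± 3.25 CPM) and CYTH3 (66.2 ± 1.18 to 34.0 ± 0.746 CPM) fell.

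Of the mTOR complex and translation genes, 20 of 25 passed (80.0%), 9 higher and 11 lower, with a median of -0.03. MTOR fell from 140.0 ± 2.44 to 109.6 ± 1.80 CPM (-0.35), DEPTOR, an inhibitor of mTOR, rose from 2.50 ± 0.287 to 15.0 ± 0.961 CPM (2.59), PDCD4 rose by 0.96, and the stress gene DDIT4 fell from 109 ± 4.98 to 48.0 ± 0.548 CPM (-1.18). TSC2 did not pass (90.4 ± 4.66 and 90.7 ± 0.384 CPM). Of the FOXO factors and FOXO target genes, 18 of 22 tested passed (81.8%), 8 higher and 10 lower, with a median of -0.05. FOXO1 fell from 25.0 ± 1.14 to 13.2 ± 0.865 CPM (-0.92) and FOXO3 did not pass (51.3 ± 1.04 and 50.5 ± 2.77 CPM). PDK4 rose from 6.57 ± 0.576 to 220.5 ± 19.6 CPM (5.07) and FBXO32 from 47.4 ± 1.57 to 169 ± 6.46 CPM (1.84), both known as FOXO targets, while CITED2 fell from 48.9 ± 3.88 to 7.40 ± 0.587 CPM (-2.72) and PINK1 from 30.6 ± 1.06 to 18.4 ± 0.331 CPM (-0.74). The known FOXO targets thus included large changes of either sign.

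**Figure D4:**
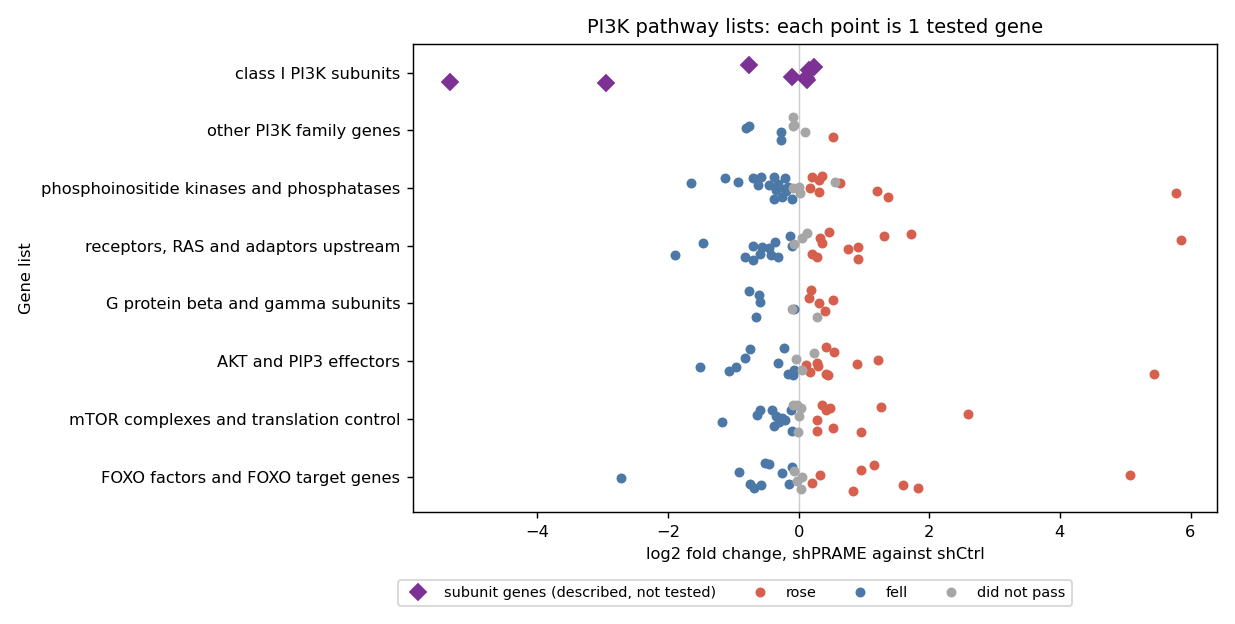
Log2 fold change (x axis, shPRAME against shCtrl) of the 8 subunit genes (diamonds, with no test) and of each tested gene in 7 pathway lists, coloured by whether it rose, fell or did not pass at an edgeR adjusted p of 0.05. Every list has genes on both sides of 0, and the list medians lie between -0.17 and 0.09.

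PIK3CG, PIK3CD and PIK3R5 are best known from leukocytes, so the markers of other cell types were read beside them. Of 17 leukocyte markers, CD3E, MS4A1 and TYROBP were among those at 0 in all libraries. Of the 5 tested, 4 rose and 0 fell, and of all tested genes 37.7% rose. PTPRC, the leukocyte surface phosphatase, was at 0 in shCtrl and 0.925 CPM in shPRAME. The summed level of the 17 was 50.4 to 52.7 CPM in shCtrl and 80.3 to 82.1 CPM in shPRAME, and without CD68, a lysosomal protein made by many cells (43.9 ± 1.16 and 70.7 ± 0.767 CPM), it was 7.10 to 7.68 and 9.81 to 11.2 CPM. LYZ and LAPTM5 also rose, while CORO1A did not pass (4.82 ± 0.773 and 5.08 ± 0.475 CPM). Among the scarce markers that were not tested some were lower, such as ITGB2 with 9, 4 and 5 counts in shCtrl and 1 in each shPRAME library, and ITGAM with 3, 0 and 6 counts and then 0 in each. Of 6 endothelial markers CDH5 and CLDN5 were at 0 and the sum was 0.292 to 0.947 CPM in shCtrl and 3.01 to 3.85 CPM in shPRAME. TEK rose there from 0.0309 ± 0.00144 to 2.79 ± 0.296 CPM, while KDR did not pass (0.293 ± 0.198 and 0.335 ± 0.123 CPM). Of 7 tested fibroblast markers 5 rose and 2 fell, and the sum of all 8 was 112.5 to 116 CPM in shCtrl and 88.1 to 95.3 CPM in shPRAME. Within it PDGFRB and FAP (46.1 ± 1.202 to 27.0 ± 0.771 CPM) fell, whereas COL1A2 was at 0 in shCtrl and 21.6 CPM in shPRAME. PTPRC, LYZ, TEK, COL1A2 and some other fibroblast markers passed the filter on low counts through their shPRAME libraries only. For such markers only a rise could be called. Keratinocyte markers, with KRT5, KRT1 and IVL at 0, summed to 27.7 to 29.6 and 23.2 to 24.4 CPM. Nearly all of that sum was KRT10 (28.2 ± 1.08 and 23.4 ± 0.613 CPM), with KRT14 at 0.326 ± 0.128 and 0.209 ± 0.0205 CPM. Of the 8 melanocyte lineage markers 3 were tested, of which 0 rose and 2 fell, and TYR was at 0 in all libraries. The sum of the 8 was 356.7 to 372 CPM in shCtrl and 341.8 to 341.9 CPM in shPRAME, nearly all of it from SOX10, MITF and S100B. S100B fell from 54.0 to 28.2 CPM and MITF from 44.6 ± 1.38 to 37.7 ± 0.740 CPM, while SOX10 (265.7 ± 7.95 and 275.4 ± 1.48 CPM) did not pass. PTPRC, LYZ, LAPTM5, ITGB2, ITGAM, S100B, DCT, PMEL, MLANA, TYRP1 and COL1A2 were named after their values were seen. The part of these marker changes in the differences of the 8 genes was not tested.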

How the data were processed

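The deposited files, 1 for each library, hold raw whole-number counts by NCBI gene identifier, per the file headers. RNA was extracted with TRIzol, polyA-enriched and sequenced as read pairs of 150 bases, per the labels' protocols. The submitters' processing notes name fastp, STAR, Salmon and the builds GRCh38 and hg38. Which of these made the counts, with which annotation release and strand setting, is not given in the sources used here. If counts were estimated by a model, genes that overlap or resemble others are uncertain.

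Of 40929 rows, 34 with a repeated identifier were summed, and 40789 of 40895 identifiers matched the RefSeq table (GRCh38.p14) that gave symbols and coordinates. The 106 unmatched took at most 0.00929% of counts. The test was that of edgeR 4.0.16 under R 4.3.3 (with filterByExpr, TMM factors of 0.978 to 1.02, glmQLFit and glmQLFTest, 2-sided, group as the only term), and Benjamini-Hochberg adjustment ran over all 15954 tested genes. The SE of a log2 fold change is its size divided by the root of F. The biological coefficient of variation was 0.0311. Alternatives were RLE size factors, library totals only, no filter, at least 1 CPM in 3 libraries, DESeq2 1.42.0, limma-voom (3.58.1), glmTreat against a fold of 1.2, the replicate number as a block, leaving out each library, joining overlapping genes, and subtracting the regional median. The fit was checked on simulated counts.

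The 8 genes, the 7 pathway lists (171 entries) and the marker lists were chosen with earlier results of these data known. Named genes were PRAME, the 8 genes, a set of well-known pathway genes, up to 4 genes per list (of called genes with a mean from 1 CPM up, the 2 of smallest adjusted p that rose and the 2 that fell), the 2 most abundant markers per marker list, and the 3 nearest patterns to the lowest and highest of the 8 genes. The genes of the overlaps and neighbourhoods were set by position. Results of some listed genes are counted but not reported by name here. Coding length from RefSeq proteins was not used here. GENCODE release 29 coding length took its place, chosen after the files were seen. Counting intervals and the limit of 3 counts cover counting error only.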

Additional observations from a re-analysis of the deposited data

How the results depend on the processing

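The log2 fold changes of the 8 genes kept their sign and moved by less than 1 SD of the libraries under RLE size factors, DESeq2, limma-voom, no filter and each left-out library. That of PIK3R5 ranged from -4.05 (without shPRAME replicate 3) to -2.58 over the left-out libraries, and it gave no value under the 1 CPM filter. Leaving out 1 library gave -0.13 to -0.06 for PIK3CB and 0.08 to 0.19 for PIK3R3. Scaling to library totals only gave 0.29 for PIK3R2 and -0.05 for PIK3CB. With the regional median subtracted, PIK3CA reversed to -0.13, and the values were -0.19 for PIK3CB, -0.49 for PIK3CD, 0.52 for PIK3R1, 0.29 for PIK3R2 and 0.43 for PIK3R3. Against a fold of 1.2 (glmTreat), 7726 genes passed in place of 11875, with 3 of the other PI3K family, 16 of the phosphoinositide kinases and phosphatases, 6 of the G protein genes, 12 of the AKT and PIP3 effectors and 12 of the mTOR genes. With coding length, chosen after seeing the data, the shares in shCtrl and shPRAME were 37.7% and 47.3% for PIK3CA, 44.8% and 48.4% for PIK3CB, 5.86% and 4.02% for PIK3CD, 11.7% and 0.328% for PIK3CG, 37.8% and 37.3% for PIK3R1, 36.9% and 38.5% for PIK3R2, and 24.9% and 24.1% for PIK3R3, with 0.406% for PIK3R5 in shCtrl. The ratio of regulatory to catalytic transcripts was then 1.29 and 1.68, and within class IA 1.45 and 1.69. With the replicate number as a block (replicate block), 11603 genes passed, 11 of the G protein genes, 20 of the AKT and PIP3 effectors and 17 of the FOXO genes, with the other 4 lists at the same counts. Same-numbered libraries correlated at -0.06, -0.12 and -0.10 in their deviations from the group means. With 3 libraries per group, these correlations cannot show whether same-numbered samples were handled as pairs. Depth limits PIK3R5, whose shPRAME libraries hold 1, 1 and 5 counts.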
